A study of Mus musculus with 3 samples.

Results

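The genes described here are 7 genes of type 2 immunity, Gata3, Il4, Il5, Il13, Il4ra, Il1rl1 and Areg, followed through single leukocytes of 4T1 mouse mammary tumors. They are 7 of the 32285 genes in the count matrices. They were chosen by symbol, and the set was drawn up after a higher Gata3 level in T cells of the p38KO library was known, so the T cell values of that library are given as a description and support nothing. The tumors came from orthotopic implantation of 200000 4T1-luc cells, a luciferase-carrying mammary carcinoma line, into the mammary fat pad of female BALB/c mice, and were taken on day 14. Live CD45-positive cells were sorted and profiled by 3′ single-cell RNA sequencing.

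The vehicle group carried unedited 4T1-luc tumors and received DPBS. The p38i group carried the same tumors and received the p38 inhibitor LY2228820 (ralimetinib) at 30 mg/kg for 10 days from day 4. The p38KO group carried 4T1-luc tumors in which p38α had been inactivated by CRISPR-Cas9 (the library named p38a-ko-H9). That line was 1 clone, and the host leukocytes measured here still had p38α. No gavage is stated for its mice, so the clone, the gene and the gavage cannot be told apart. Each group was 1 library pooled from 3 mice. With 1 library per group there was no replicate check, no test between groups was possible, and all intervals below are 95% intervals that cover counting error only.

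Type 2 immunity is the arm of the immune system known for defence against helminths, for allergy and for tissue repair. In T helper 2 (Th2) cells the transcription factor GATA3 opens the linked Il4, Il13 and Il5 genes, while basophils and mast cells carry the same locus in a poised state and release IL-4 or IL-13 quickly. IL-4 and IL-13 act on macrophages and other cells through the shared chain IL-4Rα, and the alarmin IL-33 acts through ST2, the product of Il1rl1, on mast cells, basophils, Th2 cells and tissue regulatory T cells.

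After filtering, 3820, 4793 and 3859 cells were kept, with values here and below in the order vehicle, p38i and p38KO. The median kept cell had 3162, 3038 and 3317 unique molecular identifiers (UMIs, 1 per captured transcript). The libraries held 21675352 to 25997636 UMIs in all. The median share of mitochondrial counts was 0.671%, 0.968% and 2.10%. Pairs of libraries shared between 5 and 9 cell barcodes. Cells were gated on transcripts: T cells by Cd3e (605, 729 and 603 cells), basophils by Mcpt8 (3, 10 and 14 cells), and mast cells by Mcpt2 and Cpa3 (2, 7 and 96 cells). T cells were split into Foxp3 T, Trdc T (the γδ T cell receptor), Cd4 T, Cd8 T and other Cd3e T cells. Of the 9 mast cell marker genes not used for gating, none was at 0 in the mast cell gate of any library. In the basophil gate 2, 1 and 1 of the 7 basophil marker genes were at 0, among them Prss34 in every library. Of the 9 mast cell marker genes, 6, 6 and 3 were at 0 there, among them Kit and Cma1 in every library. Hdc, Ms4a2 and Gata2 are on both lists. Levels are given as CPM, the counts of a gene per 1000000 UMIs of a gate. A ratio is called higher or lower where its log2 value is at least 0.5 either way, its interval leaves out 0 and both libraries together hold at least 20 counts.

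The cytokine members Il4, Il13 and Il5 lie side by side on mouse chromosome 11. On GRCm38 (GENCODE M21 annotation) Il4 spans chr11:53602982-53618669 and Il13 chr11:53631324-53634702, both on the minus strand, and Il5 spans chr11:53720794-53725106 on the plus strand. The 3 genes cover 122 kb, with 12.7 kb between Il4 and Il13. The remaining members lie elsewhere, Gata3 at chr2:9857078-9890034 (minus), Il1rl1 at chr1:40429570-40465415 (plus), Il4ra at chr7:125552120-125579474 (plus) and Areg at chr5:91139599-91148432 (plus).

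The 250 bases before the annotated start are shown for the linked cytokine genes, whose transcripts were found together in 1 p38KO T cell, and for the distal start of Il1rl1. They are from RefSeq on GRCm38.p6 and are written 5′ to 3′ on the strand of the gene. Capitals mark the GATA motif AGATAA, its variant AGATAG, the motif TGATAA and its variant TGATAG, searched on both strands, so that a motif on the opposite strand appears as its reverse complement.
Il4, chr11:53618666-53618915, minus strand: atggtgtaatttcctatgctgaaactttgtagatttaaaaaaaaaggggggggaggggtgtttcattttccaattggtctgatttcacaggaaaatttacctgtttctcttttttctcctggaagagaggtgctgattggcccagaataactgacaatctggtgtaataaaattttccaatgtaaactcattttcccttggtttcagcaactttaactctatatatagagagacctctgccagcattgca
Il13, chr11:53634703-53634952, minus strand: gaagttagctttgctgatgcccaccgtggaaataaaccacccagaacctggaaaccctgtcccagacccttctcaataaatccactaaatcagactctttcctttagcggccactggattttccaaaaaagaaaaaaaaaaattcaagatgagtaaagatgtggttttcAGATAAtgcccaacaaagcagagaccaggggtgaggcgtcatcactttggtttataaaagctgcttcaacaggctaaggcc
Il5, chr11:53720544-53720793, plus strand: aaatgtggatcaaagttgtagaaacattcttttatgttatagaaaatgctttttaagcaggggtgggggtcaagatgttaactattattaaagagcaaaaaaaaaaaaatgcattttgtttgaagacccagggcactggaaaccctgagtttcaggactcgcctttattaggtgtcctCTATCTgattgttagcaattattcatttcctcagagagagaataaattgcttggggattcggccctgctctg
Il1rl1, chr1:40429320-40429569, plus strand: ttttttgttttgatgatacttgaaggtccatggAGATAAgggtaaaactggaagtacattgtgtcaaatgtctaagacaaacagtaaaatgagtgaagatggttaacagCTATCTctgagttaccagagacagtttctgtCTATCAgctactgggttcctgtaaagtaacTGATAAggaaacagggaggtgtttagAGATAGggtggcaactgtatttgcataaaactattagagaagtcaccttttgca
The Il13 window holds 1 AGATAA, 81 bases before the start, and the Il5 window 1 AGATAG on the opposite strand, 72 bases before the start. The Il4 window shown holds none of the 4 motifs, while the window of its other RefSeq start holds 1. The distal Il1rl1 window holds 5, at 217, 141, 110, 80 and 54 bases before the start, and the window of its second start holds 1. No match was found in the windows of Gata3, Areg and Il4ra. Of 32817 promoter windows of the same length, 26.6% hold at least 1 of these motifs and 1.35% hold 3 or more. A match describes the letters only.

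Gata3 was a T and NK cell transcript in all 3 libraries. Its level in all Cd3e T cells was 87.0 CPM (78.2 to 96.6) in the vehicle library, 88.5 CPM (79.3 to 98.4) in the p38i library and 144 CPM (133 to 157) in the p38KO library. The vehicle and p38i intervals overlapped and the p38KO interval lay above both. The log2 ratio to vehicle was 0.73 (0.54 to 0.93) for p38KO and 0.02 (-0.19 to 0.24) for p38i. Gata3 UMIs were found in 37.0%, 32.9% and 40.0% of T cells, and in 15.0%, 11.8% and 18.9% after each cell was thinned to 1500 UMIs. As a background for free RNA, 0.341%, 0.162% and 0.445% of granulocytes carried a Gata3 UMI, at a median depth of 2494, 2252 and 2177 UMIs against 5370, 4081 and 4992 in T cells. In NK cells the level was 56.8, 74.0 and 73.7 CPM, no count was seen in B cells or basophils, and the 96 mast cells of the p38KO library held 3 counts.

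By T cell gate, the p38KO ratio of Gata3 was called in Cd4 T and other Cd3e T cells, and whether the ratio differed between gates was not tested. In Cd4 T cells it was 173 CPM (140 to 210) in the vehicle library, 133 CPM (107 to 163) in the p38i library and 258 CPM (228 to 292) in the p38KO library, a log2 ratio of 0.58 (0.24 to 0.93) for p38KO over vehicle. In other Cd3e T cells, which carry neither or both of the Cd4 and Cd8 transcripts, it was 87.4 CPM (66.0 to 113), 68.0 CPM and 137 CPM (111 to 167), a log2 ratio of 0.65 (0.16 to 1.15). There 30 of 99, 46 of 174 and 41 of 129 cells carried Gata3. The highest cell held 9 of 56 vehicle and 18 of 98 p38KO counts. Cd8 T cells, at 56.7, 64.8 and 57.0 CPM, and Foxp3 T cells, at 159, 134 and 168 CPM, had p38KO ratios near 0, namely 0.01 (-0.45 to 0.45) and 0.08 (-0.37 to 0.54). Trdc T cells had 37.7, 82.4 and 45.0 CPM from 31 to 39 cells, and their p38i ratio of 1.13 (-0.08 to 2.42) was not called.

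The mix of T cells also differed between the libraries. Cd4 T cells were 18.7%, 19.8% and 29.0% of T cells, and Cd8 T cells were 46.9%, 34.6% and 27.4%. With the p38KO gate levels weighted by the vehicle library's share of UMIs in each gate, Gata3 in p38KO T cells was 109 CPM in place of 144, beside 87.0 CPM in the vehicle library. With the vehicle levels weighted by the p38KO shares it was 110 CPM. Cd4 T cells held 28.0%, 26.7% and 47.5% of the Gata3 counts of T cells.

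**Figure D1:**
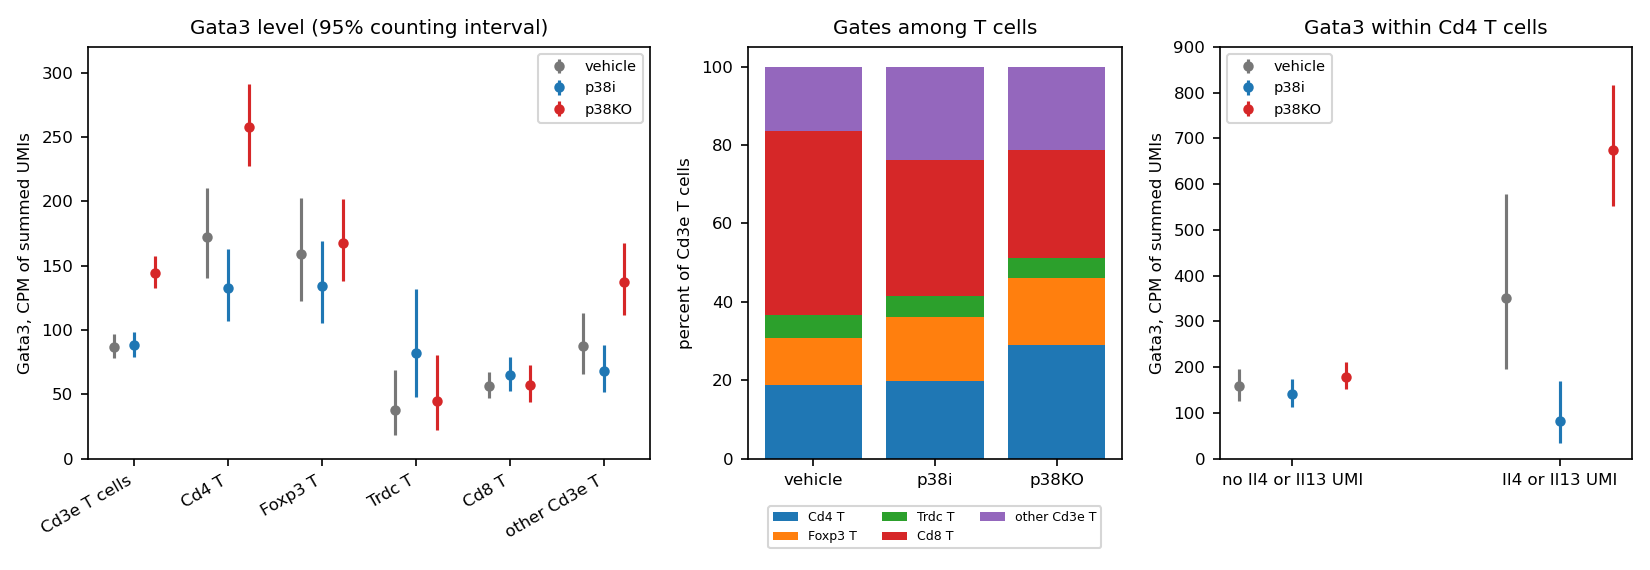
Left, Gata3 level in CPM by T cell gate and library, with 95% Poisson intervals. Middle, percent of T cells in each gate. Right, Gata3 CPM of Cd4 T cells without and with a UMI of Il4 or Il13. The p38KO library is above the vehicle library in Cd4 T cells (258 against 173 CPM) and close to it in Cd8 T cells (57.0 against 56.7 CPM), and its 17 cytokine-carrying cells are at 675 CPM.

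Within Cd4 T cells the Gata3 counts were uneven. At least 1 Gata3 UMI was found in 52 of 113, 55 of 144 and 86 of 175 cells. Cells with at least 5 Gata3 UMIs numbered 5 of 113 in the vehicle library, 0 of 144 in the p38i library and 13 of 175 in the p38KO library, and the highest single cells had 10, 4 and 25 UMIs. The mean of per-cell CPM, which gives each cell the same weight, put the p38KO ratio at 0.31, below the size needed for a call. Without the Cd4 T cells that carried Il4 or Il13 it was 0.18 (-0.21 to 0.58), also not called.

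Il4 and Il13, the leading Th2 cytokines, were carried by few T cells. Il4 had 11, 15 and 81 counts in 6, 12 and 19 T cells, or 2.71, 3.89 and 21.5 CPM. The p38KO level lay above the others, with a log2 ratio of 2.99 (2.08 to 4.05) to vehicle, and 1 p38KO cell alone held 41 of the 81 counts. Without the highest cell of each library the ratio was 2.84. The p38i ratio of 0.52 (-0.70 to 1.79) was not called. By gate, Cd4 T cells had 1, 6 and 53 Il4 counts and other Cd3e T cells 10, 8 and 23, while Cd8 T cells had 0 in every library.

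Il13 was lowest in T cells of the p38i library. It had 51, 18 and 117 counts, or 12.6, 4.67 and 31.1 CPM, in 3, 6 and 17 T cells. The 3 vehicle cells held 20, 20 and 11 counts, so the vehicle level rested on 3 cells, and 75 of the 117 p38KO counts were in 1 cell. The log2 ratio to vehicle was -1.43 (-2.29 to -0.63) for p38i and 1.31 (0.82 to 1.81) for p38KO. Without the highest cell of each library the p38KO ratio was 0.55 and was no longer called. The p38KO call for Il13 therefore hung on single cells, whereas the number of cells carrying it was 3 in vehicle and 17 in p38KO. By gate, Cd4 T cells had 51, 15 and 112 of the Il13 counts. They held 14.1%, 17.8% and 26.6% of the UMIs of T cells, and the part of this mix in the Il13 ratios was not tested.

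Il5, the eosinophil growth factor, was at the edge of detection. Its only T cell counts were 2 UMIs in 1 Cd4 T cell of the p38KO library. That cell, with 8641 UMIs in all, was also the one with 41 Il4 and 75 Il13 UMIs, and it had 15 UMIs of Gata3 and 1 of Il1rl1. With 0 counts, the T cells of the vehicle library allow an Il5 level of up to 0.739 CPM.

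Both Il4 and Il13 were found together in 7 T cells of the p38KO library and in 0 of the 605 vehicle and 0 of the 729 p38i T cells. Of those 7, 4 were Cd4 T, 1 was Foxp3 T and 2 were other Cd3e T cells. Gata3 was detected in 3 of 3, 3 of 6 and 16 of 17 of the T cells with Il13, and in 4 of 6, 10 of 12 and 13 of 19 of those with Il4. T cells with either cytokine made up 1.49%, 2.47% and 4.81% (9, 18 and 29 cells), against 0.146%, 0.0406% and 0.167% of granulocytes and 0%, 0.233% and 0.496% of monocytes and macrophages. After thinning to 1500 UMIs the T cell shares were 1.16%, 0.686% and 1.82%, with intervals that overlap, so no order of the libraries can be read from them. In Cd4 T cells the thinned shares were 3.54%, 2.08% and 2.86%, which reversed the order of the unthinned 3.54%, 6.25% and 9.71% between the vehicle and p38KO libraries.

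**Figure D2:**
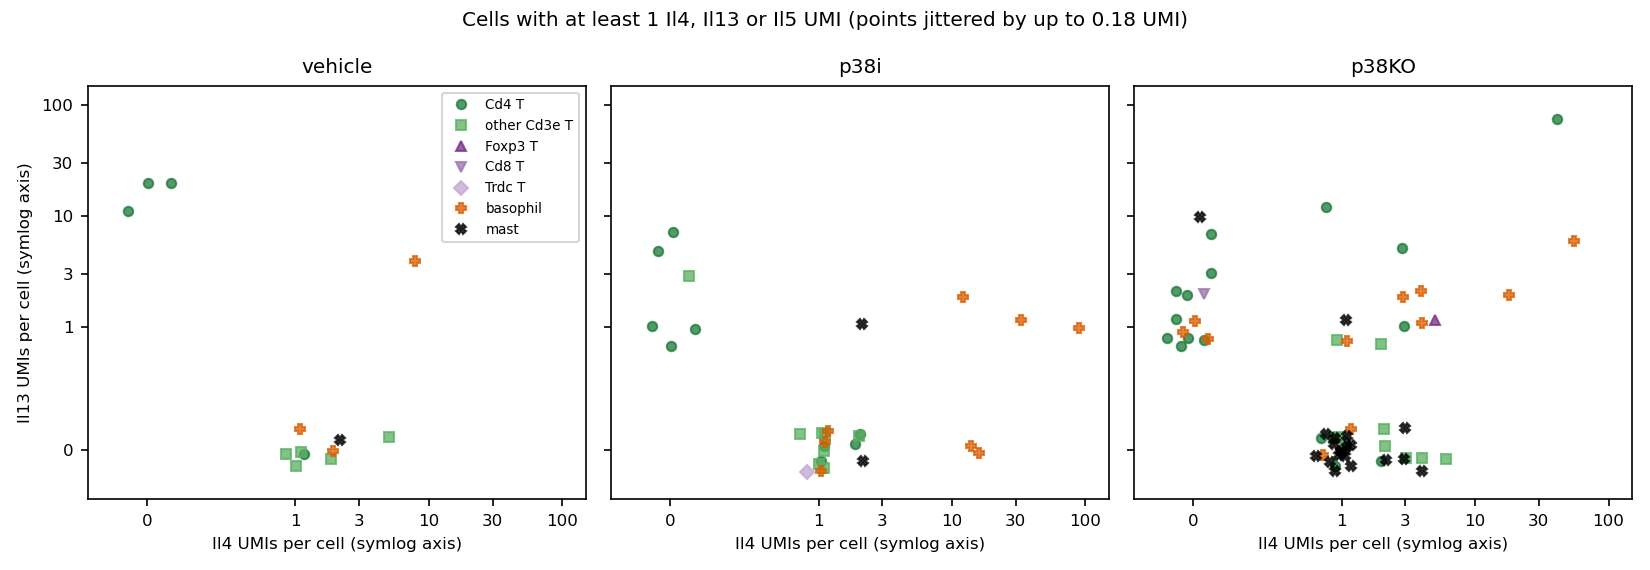
Each point is 1 T cell, basophil or mast cell with at least 1 UMI of Il4, Il13 or Il5, placed by its Il4 and Il13 UMIs on axes that are linear near 0 and logarithmic above, with 1 panel per library and a small jitter. T cells that carry both cytokines appear in the p38KO panel (7 cells) and in neither other panel, while basophils with both appear in all 3.

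The cytokine-carrying Cd4 T cells held more UMIs than the remaining ones and differed in content between libraries. Their median depth was 8499, 8411 and 9170 UMIs, against 4307, 3555 and 4739 UMIs in the Cd4 T cells without Il4 or Il13. The 17 such cells of the p38KO library had 675 CPM of Gata3, against 179 CPM in the remaining Cd4 T cells of that library, and all 17 had a Gata3 UMI. The 4 vehicle cells had 350 CPM (196 to 578), against 158 CPM in the remaining vehicle Cd4 T cells. Without the highest cell of each library, Gata3 was at 552 CPM in the p38KO cells and at 231 CPM, from 5 counts, in the vehicle cells. The 9 p38i cells had 82.4 CPM, below the 140 CPM of the remaining p38i Cd4 T cells. In the 17 p38KO cells the chemokine gene Ccl1 had 1079 counts in 7 cells, 680 of them in 1 cell, or 6808 CPM with that cell and 2804 CPM without it. Lgals7 was at 984 CPM in 12 cells and Pparg, a nuclear receptor of Th2 cells, at 82.0 CPM, or 48.5 CPM without its highest cell, while Tbx21, which encodes the type 1 factor T-bet, had no count. Ifng, the type 1 cytokine, was at 700 CPM in 4 of these cells, or 386 CPM without the highest. Other genes looked at in the 17 cells went both ways against the remaining p38KO Cd4 T cells. Il1rl1 was higher (164 against 27.3 CPM), and Cd200r1 was alike (107 against 113 CPM). Rora (107 against 151 CPM) and Ccr4 (1 count, 6.31 against 30.9 CPM) were not higher, and Ptgdr2 had no count in either. In the 9 p38i cells Ifng was at 542 CPM in 4 cells, or 113 CPM without the highest, and Tbx21 had no count. The 4 vehicle cells had no Ifng count and 2 counts of Tbx21. The cytokine-carrying cells were picked by their cytokine counts, which favors cells with more UMIs, so their depths and levels are a description.

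Basophils carried far more Il4 per UMI than T cells did. Il4 was found in 3 of 3, 8 of 10 and 8 of 14 basophils, with 11, 168 and 87 counts. The level was 947 CPM (473 to 1694) in the vehicle library, 3759 CPM (3212 to 4373) in the p38i library and 1481 CPM (1187 to 1827) in the p38KO library. The p38i interval lay above both others, and the vehicle and p38KO intervals overlapped. The log2 ratio to vehicle was 1.99 (1.11 to 3.02) for p38i, and 0.65 (-0.26 to 1.70) for p38KO, which was not called. The highest p38i cell held 90 of the 168 counts. Markers of granulocytes (8 genes) summed to 1808, 29157 and 1788 CPM in the basophil gate, with 3, 7 and 6 of the genes detected, and their part in the Il4 values was not tested.

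Il13 in basophils was sparser, at 4, 4 and 17 counts in 1, 3 and 9 cells, or 344, 89.5 and 289 CPM. The vehicle and p38KO values did not differ by the size rule (log2 ratio -0.25). Of all Il4 counts in a library, basophils held 37.9%, 88.0% and 41.2%, although they were at most 14 cells. Mast cells had 2, 4 and 27 Il4 counts, or 314, 150 and 58.4 CPM, in 1, 2 and 19 cells, and 0, 1 and 11 Il13 counts, of which 10 were in 1 p38KO cell.

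Il1rl1, the IL-33 receptor gene, was highest in mast cells, followed by basophils and Foxp3 T cells, except that the 3 vehicle basophils held only 1 count. Counting at the 3′ end sums the membrane and soluble forms of ST2, which were not told apart here. In mast cells the level was 2200 CPM (1202 to 3690) from 2 cells in the vehicle library, 1690 CPM (1232 to 2261) from 7 cells in the p38i library and 1084 CPM (991 to 1183) from 96 cells in the p38KO library. The p38KO level was below both others, with a log2 ratio of -1.02 (-1.78 to -0.14) to vehicle, which rests on 14 counts in the 2 vehicle cells. Without the highest cell of each library it was -0.35 (-1.48 to 1.11) and was not called. Nearly all mast cells carried the transcript (2 of 2, 7 of 7 and 90 of 96). Mast cells held 11.9%, 27.3% and 64.5% of the Il1rl1 counts of a library, and the larger p38KO total (118, 165 and 777 counts) came with more mast cells at a lower level per UMI.

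In basophils Il1rl1 had 1, 19 and 53 counts, or 86.1, 425 and 902 CPM, in 1, 6 and 12 cells. The p38KO ratio to vehicle of 3.39 (0.85 to 8.72 on the log2 scale) rests on 1 vehicle count. Between the p38KO and p38i libraries the log2 ratio was 1.09, and there the vehicle library does not enter. Fcer1a and Ms4a2, subunits of the IgE receptor, were also higher in p38KO than in p38i basophils, with log2 ratios of 2.31 and 2.03, although Fcer1a had too few counts for a call without the highest cells. Both are among the 7 basophil marker genes, which together summed to 8005, 7272 and 7561 CPM in the gate, so the list as a whole was alike. Granulocyte markers summed to 29157 CPM in the p38i and 1788 CPM in the p38KO basophil gate, and their part in these ratios was not tested.

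In T cells Il1rl1 was carried mainly by the Foxp3 gate, which holds regulatory T cells. There it was 144 CPM (110 to 186) in the vehicle library, 80.0 CPM (58.1 to 107) in the p38i library and 144 CPM (116 to 176) in the p38KO library. The p38i value lay below both others and the other two were alike, with log2 ratios to vehicle of -0.85 (-1.45 to -0.26) for p38i and 0.00 (-0.49 to 0.49) for p38KO. Ctla4, an inhibitory receptor of these cells, was lower in both other libraries than in the vehicle library (955, 554 and 426 CPM). Il10 had 22, 7 and 8 counts (53.8, 12.7 and 12.1 CPM), but 11 of the vehicle counts were in 1 cell, and without the highest cell of each library 11, 5 and 5 were left, too few for a call. Of 10 dissociation-response genes, 7 were lower in Foxp3 T cells of either library than in those of the vehicle library. Of all genes, 3.92% (p38i) and 4.18% (p38KO) were lower there. The part of the dissociation-response genes in the Il1rl1 value was not tested.

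Over all T cells Il1rl1 was 19.5, 22.1 and 44.4 CPM, in 5.29%, 5.90% and 10.1% of cells (2.48%, 3.16% and 5.47% after thinning), and the p38KO log2 ratio to vehicle was 1.19 (0.80 to 1.59). Cd4 T cells had 20.9, 36.5 and 49.0 CPM, with a p38KO ratio of 1.23 (0.30 to 2.27), and other Cd3e T cells 9.36, 15.5 and 28.0 CPM, with a ratio of 1.58 (0.21 to 3.19) that had too few counts for a call without the highest cells (15 against 3). Cd8 T cells stayed below 2 CPM in every library. With the p38KO levels weighted by the vehicle mix of gates, the T cell level was 27.1 CPM.

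Il1rl1 was also found at low level in myeloid gates of the p38KO library. Granulocytes had 10, 7 and 28 counts (1.55, 0.896 and 5.62 CPM), a log2 ratio of 1.85 (0.77 to 3.06) for p38KO over vehicle, and monocytes and macrophages had 2, 2 and 23 counts (0.289, 0.230 and 2.13 CPM), a ratio of 2.88 (0.86 to 6.01). Genes of basophils or mast cells were found in 0.488%, 0.162% and 7.85% of granulocytes and in 12.4% of p38KO monocytes and macrophages, and Mcpt2 was at 0.621, 0 and 23.9 CPM in granulocytes. Leaving out the cells with such genes kept the granulocyte ratio at 2.23 and left 14 against 2 counts in monocytes and macrophages, too few for a call.

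Il4ra, the receptor chain shared by IL-4 and IL-13, was the most evenly spread member. Granulocytes had 186, 204 and 207 CPM and monocytes and macrophages 140, 153 and 158 CPM. Foxp3 T cells had 108, 113 and 109 CPM, above the Cd4 T cells at 47.1, 57.0 and 47.0 CPM and the Cd8 T cells at 34.6, 41.3 and 46.5 CPM. Over all T cells the level was 53.7, 70.1 and 63.3 CPM, and neither ratio to vehicle, 0.38 (0.12 to 0.65) for p38i and 0.24 (-0.03 to 0.51) for p38KO, was called. Its one called T cell difference was in other Cd3e T cells, at 95.2, 109 and 71.5 CPM, where p38KO was below p38i by a log2 ratio of -0.60 (-1.13 to -0.09). Markers of granulocytes (8 genes) summed to 13261, 27081 and 3047 CPM in that gate, and their part in this difference was not tested. Mast cells of the p38KO library had 69.2 CPM, from 32 counts.

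Areg, the epithelial growth factor amphiregulin, known from tissue regulatory T cells, had most of its counts in granulocytes, the most numerous cells. They held 29 of 49, 31 of 48 and 50 of 68 counts, at 4.51, 3.97 and 10.0 CPM, in 15, 15 and 10 cells. The p38KO level was higher than that of vehicle (log2 ratio 1.15, 0.47 to 1.87) although fewer cells carried the gene, and without the highest cell of each library the ratio was 0.89. T cells had 5, 9 and 7 counts in all, of which Foxp3 T cells held 4, 6 and 4, too few for a comparison. Per UMI, Foxp3 T cells were at 9.77, 10.9 and 6.05 CPM, with intervals that overlapped those of granulocytes in each library.

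**Figure D3:**
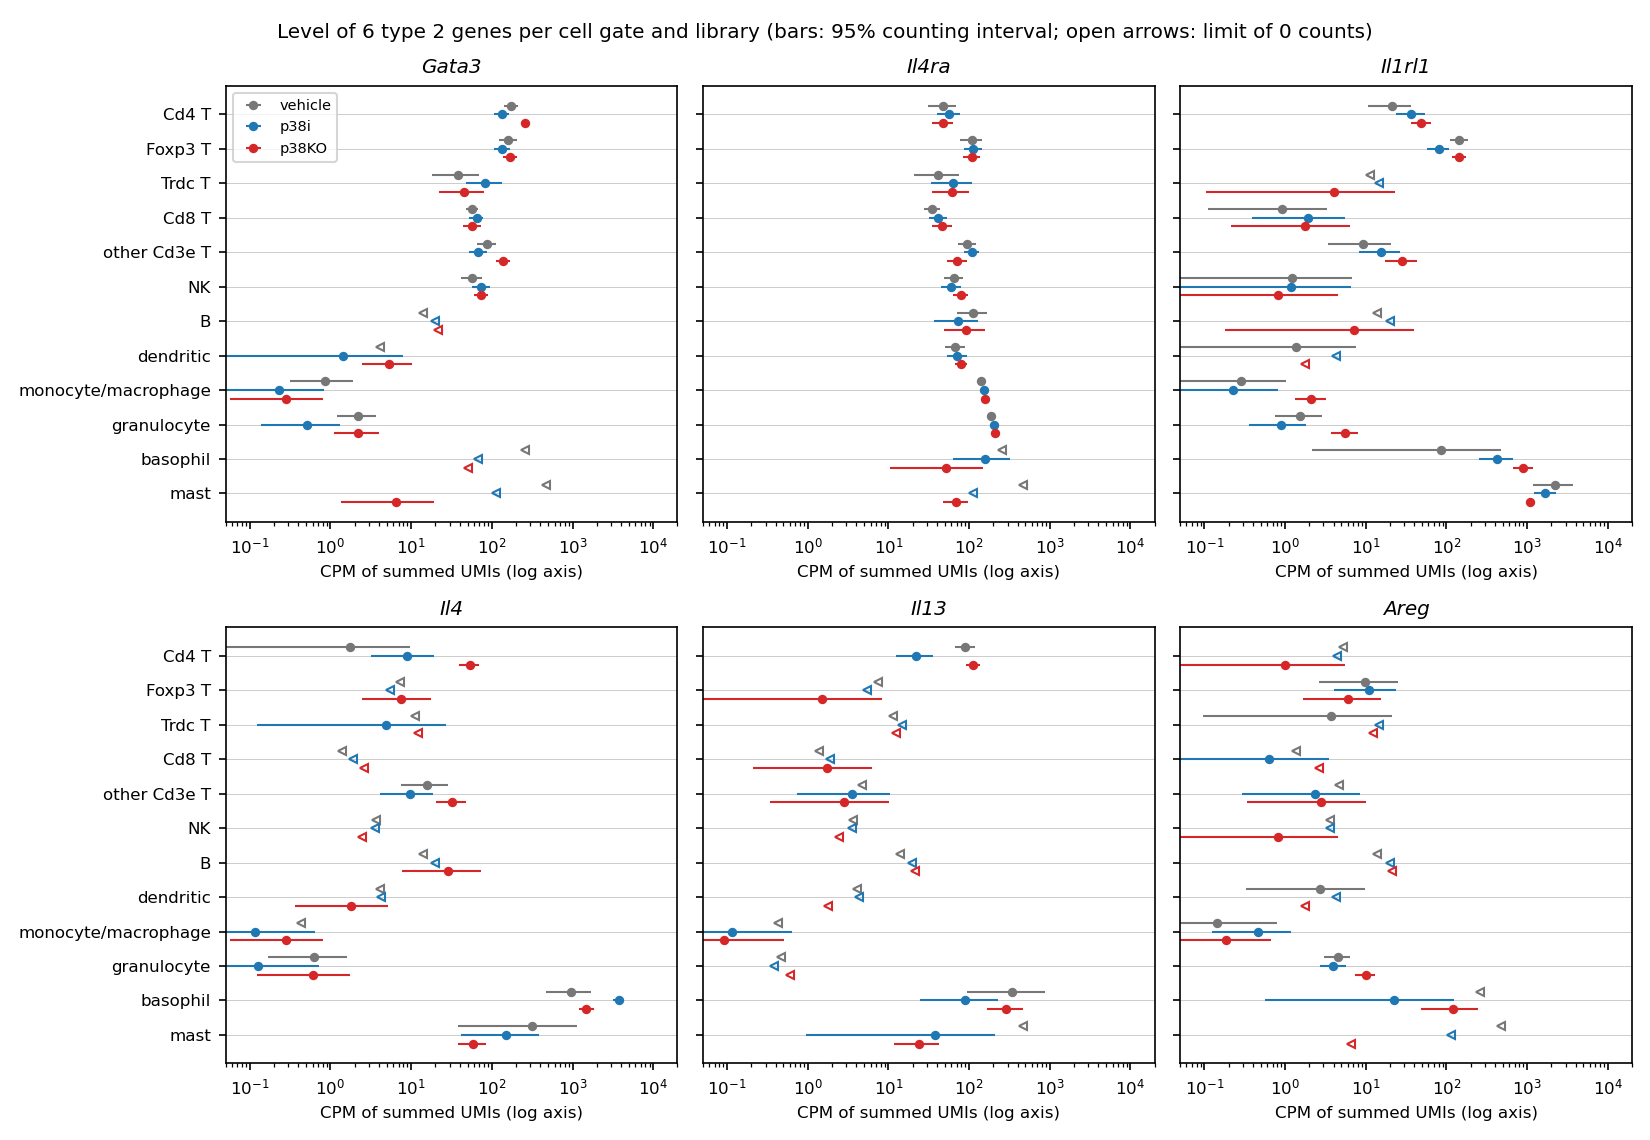
Level by gate and library of the members other than Il5, in CPM on a log axis with 95% Poisson intervals. Open arrows mark the limit that 0 counts allow. Unassigned cells and the few cells without Cd3e that were gated on Il7r and Rora are not drawn. Gata3 lies in T and NK cells, Il4 is highest in basophils (3759 CPM in the p38i library) and Il1rl1 in mast cells (1084 CPM in the p38KO library), and Il4ra is spread across the gates.

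**Figure D4:**
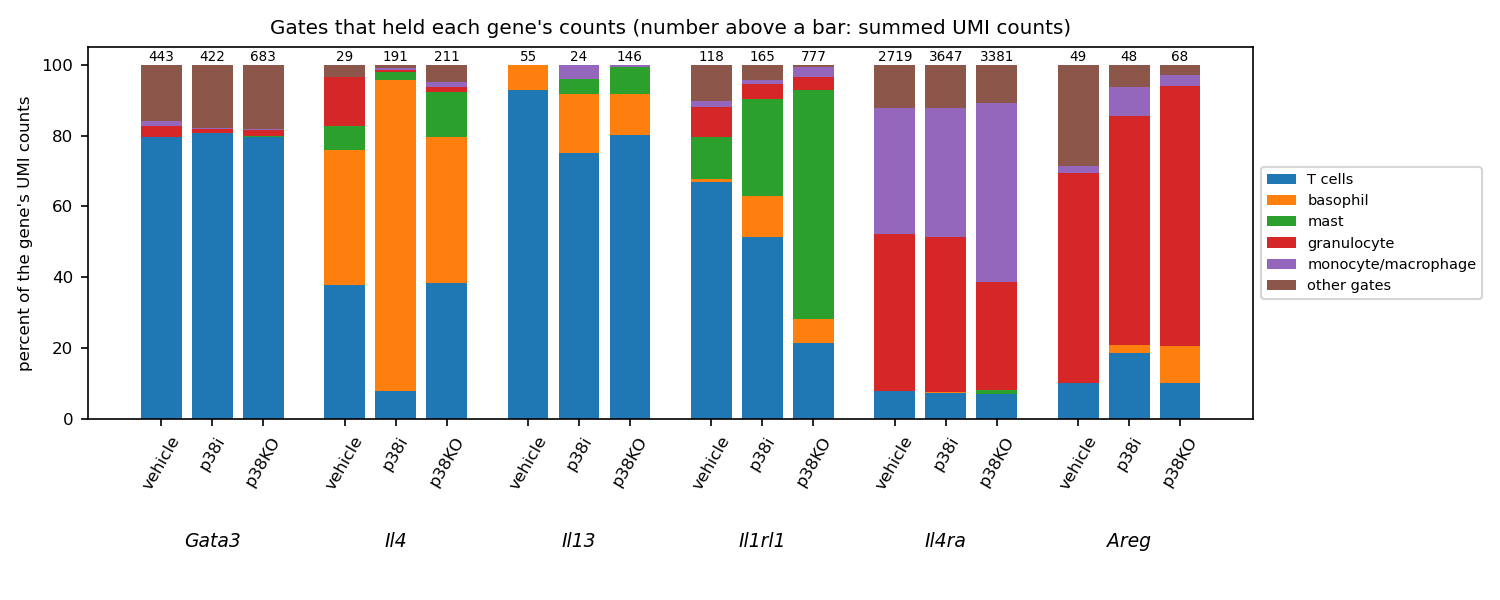
Percent of each member's counts that groups of gates held, with 1 bar per library and the summed counts above it, for the members other than Il5. Basophils held 88.0% of Il4 in the p38i library, mast cells 64.5% of Il1rl1 in the p38KO library, and T cells most of Gata3 and Il13 in every library.

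The calls of members with at least 20 counts are set here beside those of all genes in the same gate. The T cell contrast of p38KO and vehicle chose the members, so nothing is read from its counts. There 4 of 5 (Gata3, Il4, Il13 and Il1rl1) were higher, beside 10.1% of all genes called higher and 13.5% called either way, and the median log2 ratio was 1.19 beside 0.11. In p38KO against p38i the same 4 were higher (6.06% of genes), and these comparisons share the p38KO library. In p38i against vehicle 1 of 5, Il13, was lower (2.46% of genes lower and 9.03% called either way), with a median of 0.18 beside 0.07. In Cd4 T cells 3 of 5 were higher in p38KO than in vehicle (8.85% of genes higher and 12.1% called either way), and in other Cd3e T cells 2 of 4 were (7.68%). In p38KO against p38i, 3 of 4 were called in other Cd3e T cells (12.4%), 2 higher and 1 lower. In Cd8 T cells 0 of 2 were called in p38KO against vehicle (13.2%).

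Outside these gates the members that could be called were few. In Foxp3 T cells 1 of 3 was lower in p38i than in vehicle (3.92% of genes), and 0 of 3 were called in p38KO against vehicle (10.5%). In basophils 1 of 2 was higher in p38i than in vehicle (14.8% of genes), 1 of 3 was higher in p38KO than in vehicle (6.57%), and 3 of 3 were called in p38KO against p38i (25.6%). In mast cells 1 of 3 was lower in p38KO than in vehicle (1.62%). In granulocytes 2 of 4 were higher in p38KO than in vehicle (12.2%) and in monocytes and macrophages 1 of 2 (12.7% of genes higher and 18.3% called either way, and 6.4% called either way in p38i against vehicle).

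**Figure D5:**
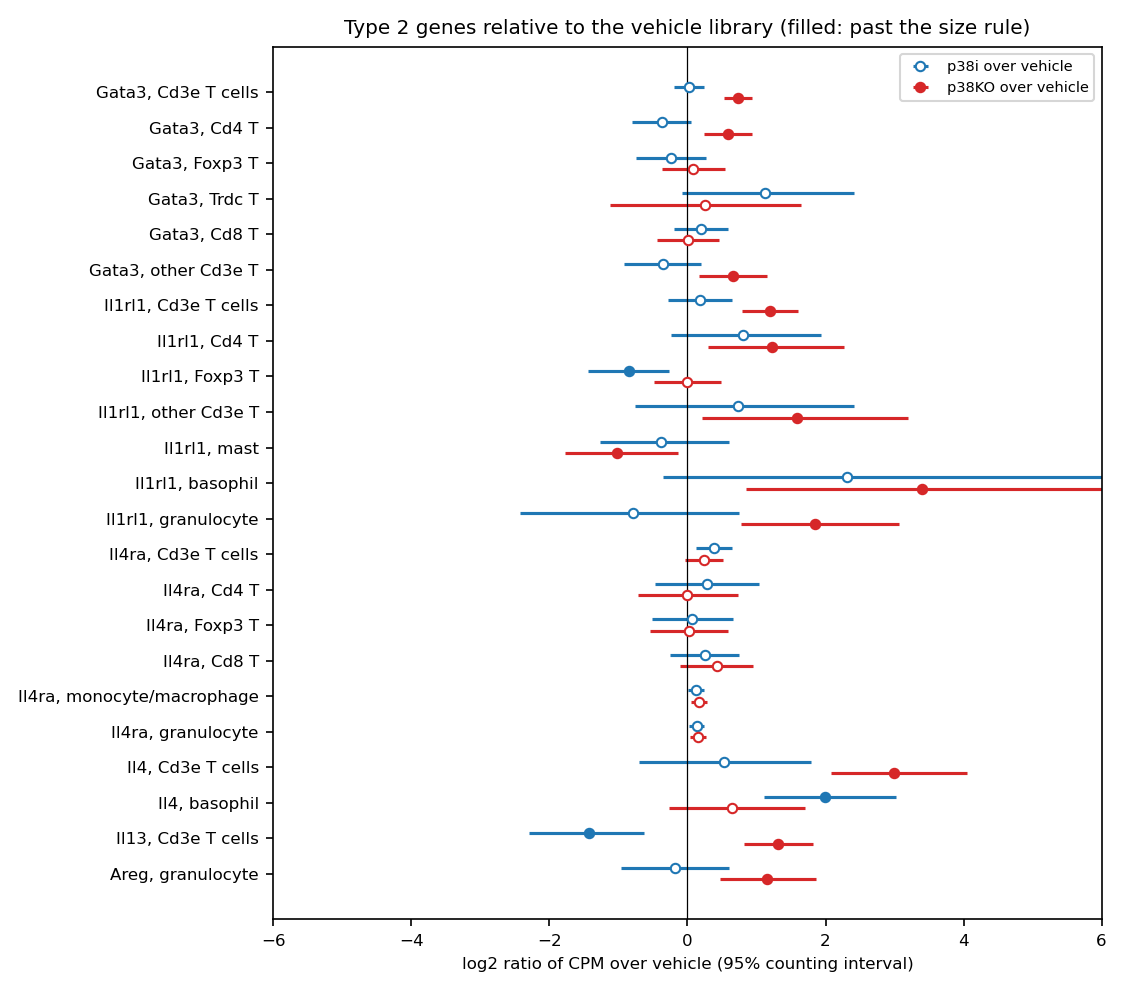
Log2 ratio of CPM to the vehicle library for members in selected gates, with exact 95% intervals that are cut at the axis for Il1rl1 in basophils. Filled points pass the size rule. In T cells the p38KO ratios of Gata3 (0.73), Il1rl1 (1.19), Il13 (1.31) and Il4 (2.99) pass it and that of Il4ra (0.24) does not.

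Among other genes of the pathway, most receptor and signalling genes in T cells were not called in either comparison with vehicle. Of 14 type 2 cytokines and inducing cytokines, 6 had enough counts in T cells. Of these, 5 were higher in p38KO than in vehicle (10.1% of all genes), with none lower and a median of 1.78 beside 0.11 over all genes. The list holds the members Il4 and Il13 in the contrast that chose the members, so nothing is read from this count or median. Besides Il4 and Il13 the higher ones were Il2, Csf2 and Il3, and each leaned on 1 cell. Il2, the T cell growth factor, had 93 and 408 counts, of which 72 and 313 were in the highest cell. Csf2, which encodes GM-CSF, had 140 and 304 counts, with 96 and 204 in the highest cell, and all 27 Il3 counts were in 1 p38KO cell. Without the highest cell of each library the p38KO ratios were 2.29 for Il2 and 1.30 for Csf2. In p38i against vehicle, Il2 had a log2 ratio of -1.88 that rested on that 1 vehicle cell, since without the highest cells it was 0.15 (-0.79 to 1.08), and Il2 was carried by 22 vehicle and 23 p38i cells. Il10 had 24 vehicle and 8 p38i counts, of which 11 vehicle counts were in 1 cell, and without the highest cells too few were left for a call.

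Of 27 receptors and signalling genes, 23 had enough counts and 6 were higher in p38KO than in vehicle T cells, beside 10.1% of all genes. None was lower, and the median was 0.11, equal to that over all genes. As this is the contrast that chose the members, nothing is read from the count. Il17rb, a chain of the IL-25 receptor, had 2, 9 and 29 counts in 2, 8 and 16 cells (p38KO log2 ratio 3.97, 1.99 to 7.08). Of these counts 0, 2 and 8 were in Cd4 T cells. Il17rb was among the 6 higher genes. Il1rap, the partner chain of ST2 (0.83, 0.33 to 1.33), and Cish, a target of STAT5 (0.79, 0.64 to 0.94), were also among them. In p38i against vehicle 3 of 22 were higher (6.56% of all genes), led by Csf2rb at 1.09 (0.82 to 1.35), and 0 were lower.

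Of 26 Th2 and innate lymphoid regulators and surface genes, 23 had enough counts. In p38KO against vehicle T cells 6 were higher and 1 was lower (10.1% and 3.4% of all genes), with a median of 0.21. Nothing is read from these counts either, since the same contrast chose the members. Hpgds, the prostaglandin D2 synthase of Th2 and mast cells, had 23, 31 and 90 counts in 16, 20 and 38 T cells, a p38KO log2 ratio of 2.08 (1.40 to 2.81). Only 2, 3 and 10 of the Hpgds counts were in Cd4 T cells, and the part of other cell types in the T cell gate was not tested. Pparg had 0, 2 and 25 counts, the last in 12 cells. With the vehicle level set at the 3 counts that a 0 allows, the p38KO level was 8.99-fold that of vehicle. That value leaves out the counting error of the 25 counts. Lgals7 (1.30), Cd200r1 (0.98) and Cysltr1 (0.84), a leukotriene receptor, were also higher, and Nfil3 was lower (-0.82).

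Of the 16 type 1 counterparts, 7 were lower, 1 was higher and 8 were not called in p38KO against vehicle T cells, with a median of -0.36, beside 3.4% of all genes lower. T-bet's gene Tbx21 was at 38.2 CPM in vehicle and 23.4 CPM in p38KO T cells (log2 ratio -0.71), Eomes had a ratio of -1.04, Gzmb of -1.11 and Il12rb2 of -1.33, beside the smaller Cd8 T share given above. In Cd4 T cells alone both directions were called, with 3 higher and 4 lower, beside 8.85% of all genes higher and 3.29% lower. Ifng rose there from 7 to 291 counts, in 7 and 31 cells, a log2 ratio of 4.58 (3.51 to 5.90). In the p38i Cd4 T gate Ifng had 63 counts in 15 cells, 37 of them in 1 cell. Over all T cells Ifng was at 98.1, 113 and 109 CPM. Il4 was also higher in the p38KO than in the vehicle Cd4 T gate, but 41 of its 53 p38KO counts were in 1 cell.

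Genes known to answer IL-4 and IL-13 in macrophages went both ways. Of 25 such genes, 23 had enough counts in monocytes and macrophages, and 4 were higher and 10 lower in p38KO than in vehicle (12.7% and 5.52% of all genes), with a median of -0.14 beside 0.09 over all genes. Ccl8 (406 and 2346 CPM), the alternative activation gene Retnla (10 and 84 counts) and the mannose receptor Mrc1 (log2 ratio 0.83) were higher, and Klf4 (-1.20), Ccl17 (-1.08), Ccl24 (-0.86) and Tgm2 (-0.79) were lower. Arg1, at 1303, 1222 and 1182 CPM, was not called in either comparison with vehicle. In p38i against vehicle 5 of 22 were higher and 3 lower (2.85% and 3.55% of all genes). There Ccl17 (1.80), Ccl24 (0.77) and Ccl8 (-0.99) each had the opposite sign to that in p38KO. The gate itself also differed, as 9 markers of monocytes and macrophages summed to 22943, 20659 and 38661 CPM in it. The part of the cell mix in these values was not tested. Of the 10 dissociation-response genes, 7 and 8 were lower in these cells of the p38i and p38KO libraries, and their part in these values was not tested.

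Cells of other types in the T cell gate differed between libraries. The 9 markers of monocytes and macrophages were all detected there and summed to 1763, 1794 and 6601 CPM, and the 8 granulocyte markers to 4521, 10796 and 3477 CPM. No doublet caller was run. T cells with any UMI of Csf1r, Csf3r, Cd79a, Mcpt8, Mcpt2 or Cpa3 were 84, 106 and 128 cells (13.9%, 14.5% and 21.2%). Without them the p38KO to vehicle ratio was 0.72 (0.51 to 0.94) for Gata3 and 1.01 (0.58 to 1.45) for Il1rl1. The full marker sets were not used to leave cells out, so the cells kept may still carry other markers.

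The genes whose levels ran most like those of each member were compared over 37 points, each a gate in 1 library, by Pearson's r of log2(CPM + 10), as a description since the points share libraries. Gata3 ran with T cell genes, led by Zap70 (0.959), Thy1 (0.946) and Trbc2 (0.933). Il4 ran with Cyp11a1 (0.924), Hgf (0.918) and Cd200r3 (0.913), a basophil surface receptor. For Il13 the highest values were Lif (0.821) and Mboat1 (0.820), and for Il1rl1 4932438H23Rik (0.898), Tmem64 (0.868) and Ms4a2 (0.851). Il4ra ran with Nampt (0.904) and Rap1b (0.850), and Areg with P2ry1 (0.809).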

How the data were processed

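The authors made the deposited values with Cell Ranger (6.0.0 in the matrix headers), and their processing notes name mm10, R 4.2.1 and Seurat 5. The deposited files hold raw UMI counts per gene and barcode, unnormalized and not filtered as in the study. Sources differ on the 10x chemistry and the number of cells sorted. Cells were kept above 1500 UMIs, 300 genes and below 20% mitochondrial counts, limits included. A mast cell or basophil needed at least 5 protease UMIs that made up 0.1% of the cell, and a T cell 1 Cd3e UMI. Counts were summed per gate and library and given as CPM with exact Poisson intervals, ratios with exact conditional binomial intervals, and shares with Clopper-Pearson intervals. Cells were thinned to 1500 UMIs with seed 1. The calculation was tested on simulated data. Python 3.11.15, numpy 2.4.6, scipy 1.17.1 and pandas 2.3.3 were used. The members, gates and gene lists were chosen with earlier results of these data known. Named were the 7 members, up to 8 called genes per list, comparison and direction with the largest ratio, and the 5 genes most like each member, of which the leading ones are printed. Values of further genes beside a result, and those of Arg1, Il10, Ctla4, Ccl1 and Ifng, were chosen after their values were seen where this rule does not name them.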

Additional observations from a re-analysis of the deposited data

How the results depend on the processing

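No paired analysis was possible because each group was 1 library. For the same reason no replicate could be left out. Ratios of the main results, namely Gata3, Il4ra, Il1rl1 and Areg in T cells and Il4 and Il13 in basophils, were recomputed under other settings. Among these, all 34 recomputed ratios of called values kept their sign, and the 29 that had an interval were still called. A fixed mix of T cell gates was not among these settings. At the vehicle mix the p38KO level in T cells was 109 CPM for Gata3 (144 at its own mix, 87.0 in vehicle). For Il1rl1 it was 27.1 CPM (44.4 at its own mix, 19.5 in vehicle). Both differences were smaller at the vehicle mix, and no interval was computed there. Some called values outside the main results were less stable. Without the highest cells, Il13 in T cells and Il1rl1 in mast cells were no longer called in p38KO against vehicle. Without cells carrying Il4 or Il13, neither was Gata3 in Cd4 T cells. Of 67 ratios of values that were not called, 0 became called and 6 changed sign, in Gata3 and Il1rl1 (p38i against vehicle) and Areg (p38KO against p38i) in T cells. Beyond their counting interval moved Gata3 in T cells, p38KO against vehicle, at 0.53 as a mean of per-cell CPM, and Il4ra in T cells, p38i against vehicle, at 0.11 without T cells that carry genes of other types. The cause was not tested. Gata3 in T cells ranged from 0.53 to 0.77 for p38KO and from -0.05 to 0.10 for p38i over vehicle, Il1rl1 from 0.91 to 1.22 for p38KO, and Il4 in basophils from 1.96 to 2.66 for p38i. Of 5 members, 3 or 4 were called in T cells in p38KO against vehicle. Leaving out the highest cell gave no Il13 ratio in basophils, since the vehicle library was left at 0. Leaving out the highest cell for values other than those of the main results, and leaving out cells with Il4 or Il13, were chosen after seeing the data. Without the highest cell, p38KO against p38i in T cells was 1.66 for Il4 and 1.97 for Il13, and Il2 in T cells reversed to 0.15 in p38i against vehicle. Few counts limit Il5 and Areg in T cells, and the small number of cells (3 and 2) limits the basophil and mast cell values of the vehicle library.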
